A study of Sus scrofa with 18 samples.

Results

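Heat shock genes that cells switch on under protein stress were followed through transplantation of pig kidneys. The 8 genes were HSPA6, HSP70.2 (the inducible HSP70 of the pig), HSPH1, DNAJB1, DNAJA4, CRYAB, ZFAND2A and HSP90AA1. They were chosen by symbol, as every probe set whose only gene symbol in the platform annotation was 1 of these 8, which gave 16 of the 10069 probe sets with 1 symbol, and 8 of 6765 named genes. The choice was made with earlier results of the same arrays known, so their differences from naive kidneys, between time points, and between CO and untreated kidneys at 4 h are given as descriptions without a p.

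The inducible heat shock response is driven by HSF1, a transcription factor that is held inactive by chaperones and released when unfolded proteins draw the chaperones away. HSP70 proteins bind unfolded stretches of other proteins, J-domain proteins bring them their clients, and HSP110 proteins exchange their nucleotide. Small heat shock proteins hold unfolding proteins in a soluble state, and HSP90 acts on proteins that are nearly folded. In the kidney, loss of blood flow followed by its return is a classical inducer of these genes, above all in the tubule.

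The series addressed injury of transplanted organs when blood flow returns and the action of carbon monoxide (CO) on it. RNA from 18 pig kidneys was hybridised to Affymetrix pig arrays, 1 kidney per array. Naive kidneys, with neither a transplant nor a donor number in the labels, had 2 arrays. Transplanted kidneys had 4 arrays in each of 4 groups: untreated at 4 h, CO-treated at 4 h, untreated at 24 h and CO-treated at 24 h. Donors 1 to 4 supplied both 4 h groups and donors 5 to 8 both 24 h groups, so that each donor number had 1 untreated and 1 CO-treated kidney. All 16 transplanted arrays, the CO-treated ones included, carried the treatment entry air, and the groups were therefore taken from titles and sources, which name CO. The labels state neither strain, age nor sex, nor the length of the ischemia, nor whether CO was given to donor, graft or recipient. Values are log2 signals, and the 95th percentile of 17 tag control probe sets, 1.61, was taken as background. A lower value in whole kidney cannot tell fewer cells of a type from less RNA per cell.

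One array, untreated 4 h donor 1, differed from the rest of its group. Over 2592 probe sets in which the other 3 untreated 4 h arrays lay more than 1 log2 unit from naive, its median position was 21.2% of the way from the naive mean to their mean, and 80.8% of these probe sets were nearer to naive. Those 3 arrays, of donors 2, 3 and 4, were each placed against the other 2 in the same way. Their medians were 95.7%, 103% and 66.1%, with 12.3%, 7.39% and 35.4% nearer to naive. For the heat shock genes its position was between -15.4% (DNAJA4) and 9.61% (HSP90AA1), and all 8 were nearer to naive. The label was followed, and whether it is right was not tested, so every untreated 4 h value and every donor 1 difference below depends on it. Results that rest on this array are given with and without it. Defining markers of kidney were present throughout, and the mean of the myeloid markers, 4 of 5 measured, was 3.04 on this array, against 2.19 to 2.57 in naive and up to 5.55 in the other untreated 4 h arrays. Proximal tubule markers, 3 of 5 measured, had a mean of 9.67 to 9.75 in naive and of 5.35 to 7.52 in 24 h arrays. The part of these cell types in the heat shock values was not tested.

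HSPA6, a strictly inducible HSP70 gene, showed the widest change. Naive arrays read 3.47 and 2.45. The untreated 4 h arrays of donors 1 to 4 read 2.17, 9.78, 10.49 and 10.86, and the CO 4 h arrays of the same donors 10.74, 8.12, 11.04 and 10.95. Every 4 h array except that of untreated donor 1 was thus far above naive, and CO donor 2 was the lowest of those 7. At 24 h the untreated arrays of donors 5 to 8 read 5.55, 7.22, 4.40 and 6.60, and the CO arrays 5.88, 5.36, 4.83 and 5.69. All 8 of these lay between the naive and the raised 4 h values, with no overlap on either side. The mean difference from naive was 7.25 ± 1.70 (SE, n = 4 and 2) in CO 4 h kidneys, a 153-fold higher signal. In untreated 4 h kidneys it was 5.37 ± 1.70 (SE, n = 4 and 2), or 7.42 ± 0.82 without donor 1.

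HSP70.2, the main inducible HSP70, started from a high level. The naive arrays read 8.88 and 8.30, the untreated 4 h arrays 8.31, 12.26, 12.32 and 12.31, and the CO 4 h arrays 12.49, 10.92, 12.48 and 12.50. Without donor 1 the untreated 4 h arrays had an SD of only 0.03 (n = 3), and CO donor 2 was more than 1 unit below every other raised array. By 24 h the untreated arrays read 8.90, 10.11, 8.73 and 9.79, and the CO arrays 9.25, 8.80, 8.45 and 9.71. Both 24 h groups overlapped the naive range. The signal of CO 4 h kidneys was 11.4-fold that of naive, and that of untreated 4 h kidneys was 6.55-fold, or 13.05-fold without donor 1. The other 2 probe sets of HSP70.2 moved alike: their group means were 8.21 and 8.50 in naive, 12.37 and 11.68 in CO 4 h kidneys, and were 8.78 and 9.24 in CO 24 h kidneys. Copies of the inducible HSP70 gene are nearly identical, so these probe sets may read more than 1 of them.

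HSPH1, the HSP110 that recharges HSP70, had tight naive values of 6.08 and 6.21. The untreated 4 h arrays read 6.06, 11.27, 11.40 and 11.54, and the CO 4 h arrays 11.94, 10.01, 11.60 and 11.73. Untreated donor 1 lay just under naive, and CO donor 2 was again the lowest of the raised arrays. At 24 h the untreated arrays read 8.12, 8.93, 8.17 and 7.92, and the CO arrays 8.37, 8.22, 7.89 and 8.38. All 8 of the 24 h arrays were above both naive arrays and below all raised 4 h arrays. The difference from naive in CO kidneys was 5.18 ± 1.06 (SE, n = 4 and 2) at 4 h and 2.07 ± 1.06 at 24 h. In untreated kidneys it was 3.92 ± 1.06 at 4 h, or 5.26 ± 0.42 without donor 1, and 2.14 ± 1.06 at 24 h.

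DNAJB1, the J-domain partner that brings clients to inducible HSP70, read 7.05 and 6.64 in naive kidneys. Untreated 4 h arrays read 7.05, 11.08, 11.28 and 11.40, and CO 4 h arrays 11.58, 9.22, 11.41 and 11.78. Donor 1 of the untreated group matched the upper naive value, and CO donor 2 was well below its 3 group mates. The 24 h values were 7.61, 8.13, 7.18 and 8.70 in untreated and 7.83, 7.18, 7.05 and 7.69 in CO kidneys. These were close to naive, although each mean was higher, by 1.06 ± 0.95 (SE, n = 4 and 2) in untreated and by 0.59 ± 0.95 in CO kidneys. The 4 h means were higher than naive by 4.15 ± 0.95 in CO and by 3.36 ± 0.95 in untreated kidneys, or 4.41 ± 0.58 without donor 1.

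DNAJA4, a J-domain protein of the DNAJA class, had the sharpest return. Naive arrays read 3.46 and 4.23, untreated 4 h arrays 3.09, 8.96, 8.41 and 9.05, and CO 4 h arrays 9.68, 7.20, 9.23 and 9.43. At 24 h untreated arrays read 4.12, 4.55, 3.11 and 4.65, and CO arrays 4.46, 4.12, 3.44 and 4.54. The 24 h arrays spanned the naive values, while the raised 4 h arrays stood well clear of both. Its difference from naive was 5.04 ± 1.20 (SE, n = 4 and 2) in CO 4 h kidneys and 0.29 ± 1.20 in CO 24 h kidneys. For untreated kidneys the values were 3.53 ± 1.20 at 4 h, or 4.96 ± 0.60 without donor 1, and 0.26 ± 1.20 at 24 h. A second DNAJA4 probe set stayed between 1.91 and 2.67 on all 18 arrays and showed none of this. Which transcripts either probe set reads was not tested.

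CRYAB encodes alpha B-crystallin, a small heat shock protein that is abundant in lens, muscle and the renal medulla. The naive arrays read 7.66 and 7.63, the untreated 4 h arrays 7.35, 10.70, 11.25 and 11.44, and the CO 4 h arrays 11.64, 11.34, 11.21 and 11.40. It was the only 1 of the 8 genes in which CO donor 2 was not the lowest CO 4 h array, and its CO 4 h SD was 0.18 (n = 4). At 24 h the untreated arrays read 9.66, 9.68, 8.40 and 9.72, and the CO arrays 9.37, 8.49, 8.86 and 8.28. The untreated 24 h array of donor 7 was below its 3 group mates, which read 9.66 to 9.72, and all 8 of the 24 h arrays were above naive. The difference from naive was 3.75 ± 0.78 (SE, n = 4 and 2) in CO and 2.54 ± 0.78 in untreated 4 h kidneys, or 3.49 ± 0.37 without donor 1, and 1.11 ± 0.78 in CO and 1.72 ± 0.78 in untreated 24 h kidneys. Collecting duct and medulla markers, 2 of 5 measured, had a mean of 8.25 to 8.72 in naive and of 7.79 to 8.76 in CO 4 h kidneys. The 8.76 was that of CO donor 2. That array also had the lowest CO 4 h mean of proximal tubule markers, 7.57 where the highest was 9.15, and the highest of smooth muscle and stroma markers, 8.53. Whether this bears on its heat shock values was not tested. Skeletal muscle markers, 4 of 5 measured, had a mean between 1.17 and 1.79 on all arrays, near background. A second, dimmer CRYAB probe set was below background in both naive arrays, at 1.35 and 1.31. It read 1.21, 4.58, 4.07 and 3.63 in untreated and 4.99, 1.76, 5.06 and 5.17 in CO 4 h kidneys, which makes the signal at least 6.23-fold higher than in naive in CO and at least 3.40-fold higher in untreated kidneys, or at least 5.61-fold without donor 1, with background standing for naive. In contrast to the brighter probe set, CO donor 2 was the lowest of its group here.

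ZFAND2A encodes AIRAP, a zinc finger protein that associates with the proteasome under proteotoxic stress. Naive arrays read 3.52 and 3.08, untreated 4 h arrays 3.38, 9.07, 8.83 and 8.18, and CO 4 h arrays 9.31, 8.06, 8.78 and 9.50. At 24 h untreated arrays read 7.47, 8.73, 6.08 and 7.08, and CO arrays 7.24, 7.58, 6.97 and 5.23. Every 24 h array stayed above both naive arrays, and in this gene alone of the 8 a 24 h array, that of untreated donor 6, lay within the range of the raised 4 h arrays. The difference from naive was 5.61 ± 1.17 (SE, n = 4 and 2) in CO 4 h and 3.46 ± 1.17 in CO 24 h kidneys, a 48.9-fold and a 10.98-fold higher signal. In untreated kidneys it was 4.06 ± 1.17 at 4 h, or 5.39 ± 0.69 without donor 1, and 4.04 ± 1.17 at 24 h.

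HSP90AA1, the stress-inducible cytosolic HSP90, had the brightest probe set at 9.96 and 9.99 in naive kidneys. Untreated 4 h arrays read 10.18, 12.03, 12.25 and 12.10, and CO 4 h arrays 12.40, 12.01, 12.23 and 12.12. At 24 h the untreated arrays read 10.86, 11.16, 11.05 and 10.88, and the CO arrays 10.95, 10.99, 11.04 and 11.27. It had the smallest 4 h difference from naive of the 8 genes, and donor 1 of the untreated group was slightly above both naive arrays. The signal of CO kidneys was 4.66-fold that of naive at 4 h and 2.13-fold at 24 h, and that of untreated kidneys 3.18-fold, or 4.45-fold without donor 1, and 2.02-fold.

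The 5 probe sets of HSP90AA1 disagreed. Numbered by brightness, probe sets 1, 3 and 5 had higher means at 4 h, with number 3 going from 7.21 in naive to 10.81 in CO 4 h kidneys and number 5 from 3.45 to 5.25. In CO 24 h kidneys number 3 was down to 7.98, and number 5 was still at 5.06. Number 2 moved over a smaller range, from 9.54 in naive to 9.76 in CO 4 h and 9.15 in CO 24 h kidneys (a difference of -0.61 between the CO groups), and all its 24 h arrays lay below both naive arrays. Number 4 was 7.80 in naive, 7.65 in CO 4 h and 6.28 in CO 24 h kidneys, and its 24 h arrays, between 5.84 and 6.66, were all below the naive arrays. Statements on HSP90AA1 therefore hold for the brightest probe set, and the cause of the disagreement was not tested.

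**Figure D1:**
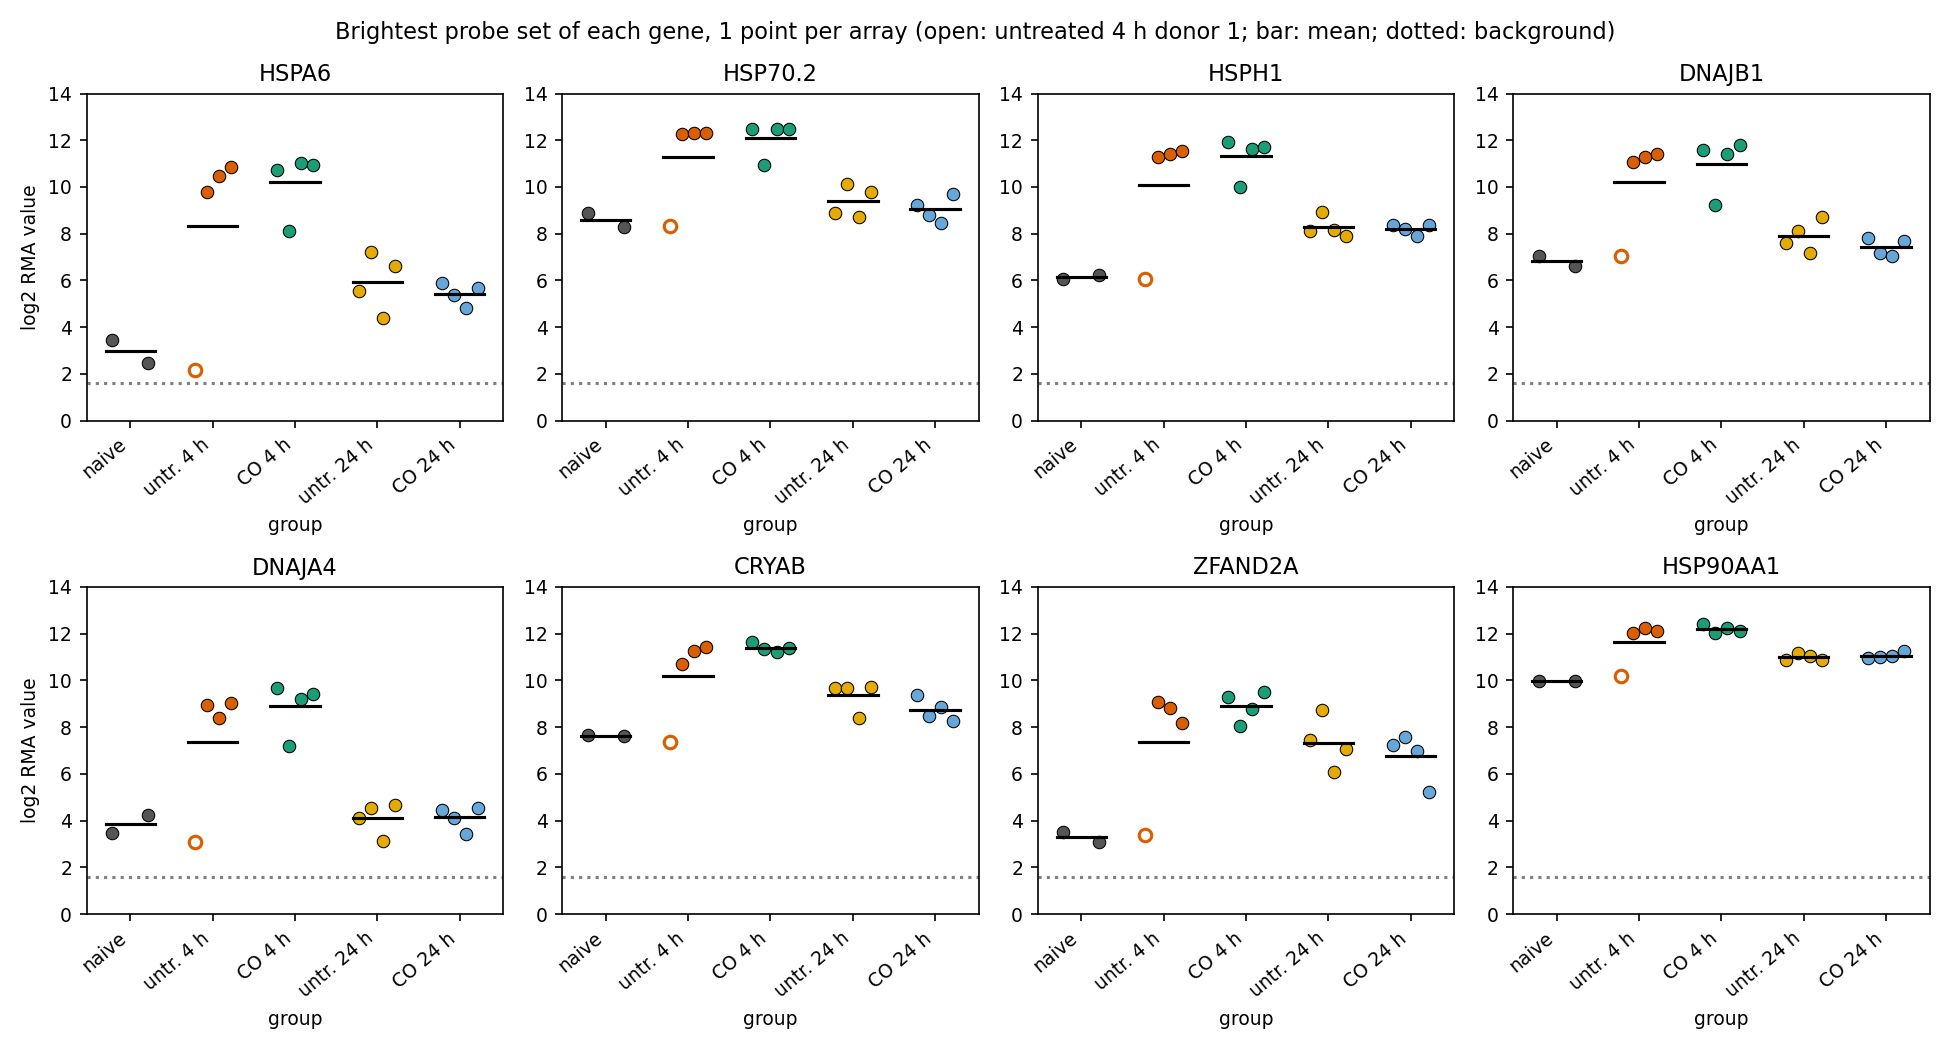
Log2 value of the brightest probe set of each of the 8 genes (vertical axis) in the 5 groups (horizontal axis), 1 point per array, with the group mean as a bar, the background as a dotted line and the untreated 4 h array of donor 1 as an open point. The open point lies at the naive level in all 8 panels, and the other 7 arrays at 4 h lie above both naive arrays.

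**Figure D2:**
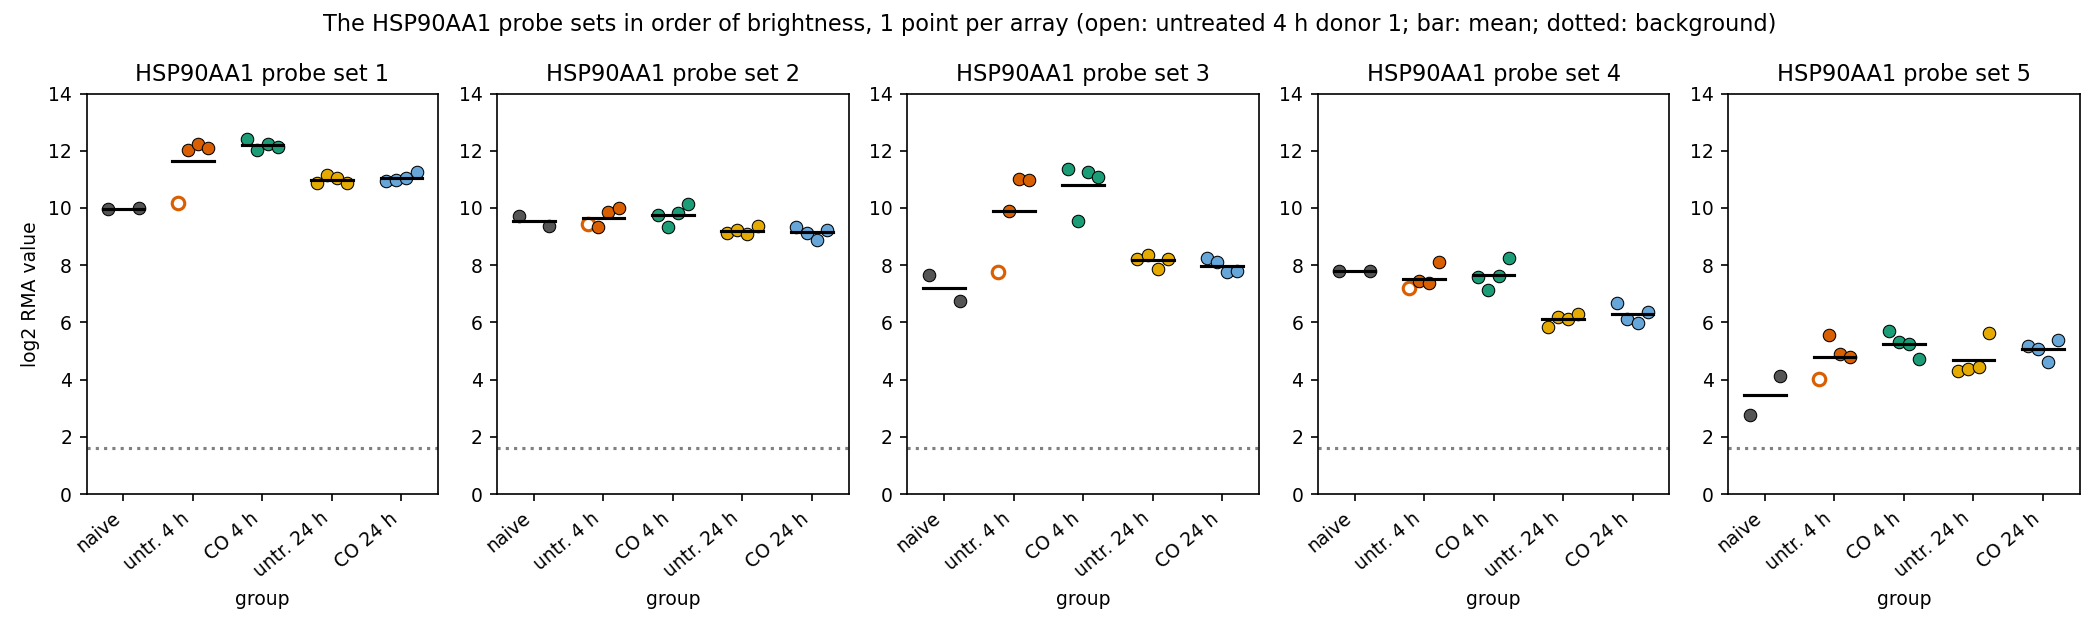
Log2 value (vertical axis) of the 5 HSP90AA1 probe sets in order of brightness, 1 panel each, in the 5 groups, with points, bars and the dotted line as in the plot of the 8 genes. Probe sets 1, 3 and 5 are higher at 4 h, number 2 is nearly level at 4 h, and numbers 2 and 4 are lower than naive at 24 h. Number 5 is nearly as high at 24 h as at 4 h.

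Against naive kidneys, the 8 genes were described by a count of those past an adjusted p under 0.05 in limma and of those whose arrays did not overlap, both read beside the share of all 23999 probe sets that did the same. In CO 4 h kidneys 8 of 8 were called higher, against 6.84% of all probe sets, and 8 of 8 did not overlap naive, against 17.6%. In untreated 4 h kidneys 1 of 8, HSP90AA1, was called higher, against 0.942%, and the same 1 of 8 did not overlap, against 11.5%. Without donor 1 these became 8 of 8 called, against 7.05%, and 8 of 8 without overlap, against 20%. With the donor as a random block, with the mean of all probe sets per gene, or with the compared groups alone in the fit, 0 of 8 were called in untreated 4 h kidneys. Because the choice of genes used these contrasts, nothing is read from the counts.

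The counts against naive also rest on having 2 naive arrays. Leaving out either naive array left 0 of 8 called in CO 4 h kidneys, and 0 of 8 in untreated 4 h kidneys, as did leaving out untreated donor 2, 3 or 4 in the latter. The values moved less: the median difference of the 8 genes was 4.60 in CO 4 h kidneys, between 4.37 and 5.17 when 1 array was left out, and 3.44 in untreated 4 h kidneys, between 2.96 and 4.68. Over all probe sets the medians were -0.01 and -0.03. With the batch that array names give held fixed, 8 of 8 were called in CO 4 h and 0 of 8 in untreated 4 h kidneys. Within the batch of naive 1, the median difference of the 8 genes was 5.11 in CO 4 h kidneys (n = 3 and 1), and within that of naive 2 it was 3.34 (n = 1 and 1).

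**Figure D3:**
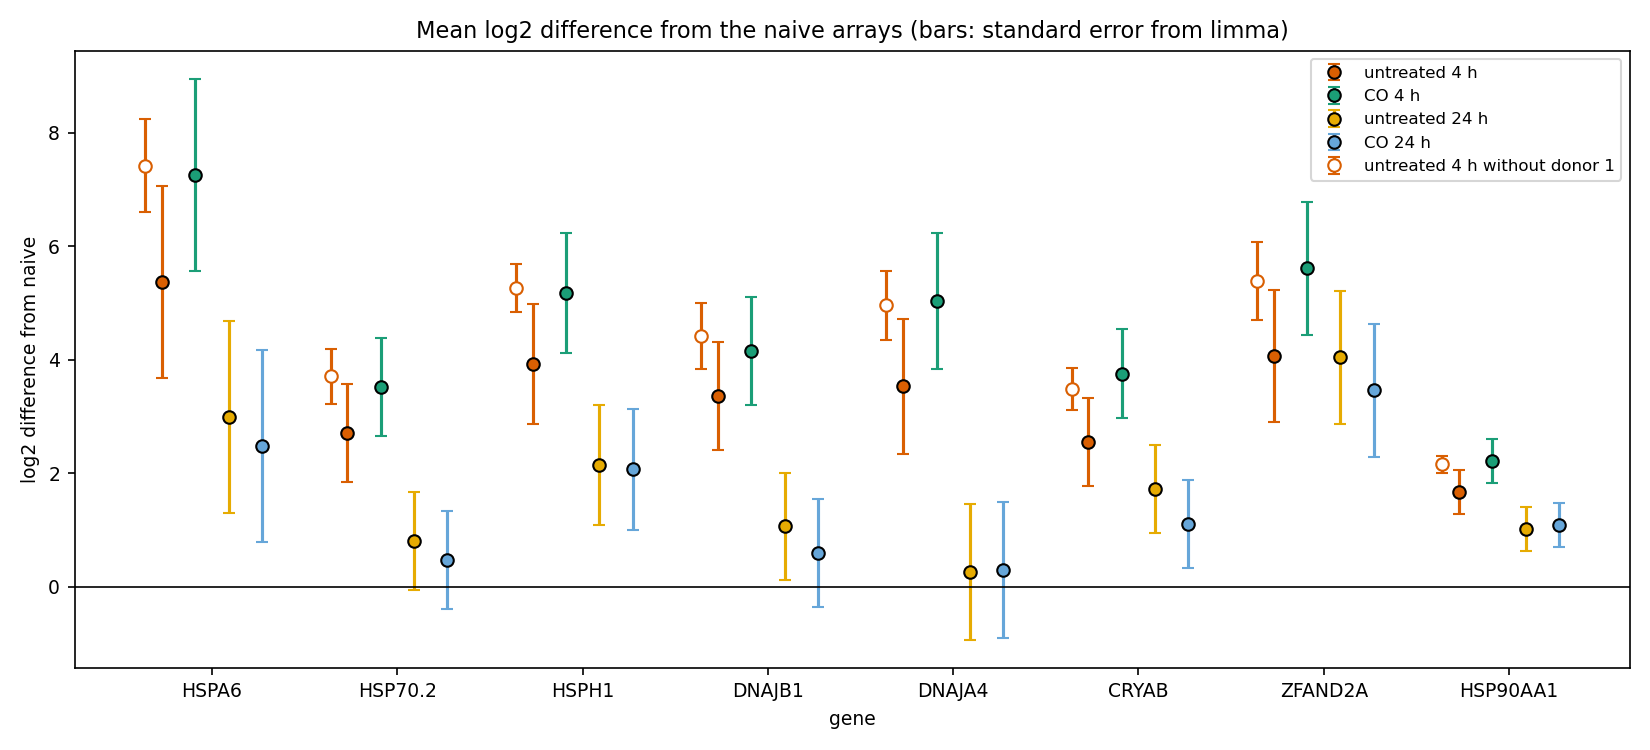
Mean log2 difference from the 2 naive arrays (vertical axis) for each gene (horizontal axis) in the 4 transplanted groups, with the standard error from limma, and open points for untreated 4 h kidneys without donor 1. Without donor 1 the untreated 4 h difference of HSPA6 is 7.42 beside 7.25 in CO 4 h kidneys, and only ZFAND2A keeps a difference above 3 at 24 h.

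By 24 h the genes had come down to different degrees. In CO kidneys all 8 had 24 h arrays entirely below the 4 h arrays, against 9.68% of all probe sets, and 7 of 8 were called lower, all but ZFAND2A, against 7.44%. That count was 8 of 8, against 8.88%, without untreated 4 h donor 1, and also 8 of 8 with the compared groups alone in the fit. It was 4 of 8 without CO 4 h donor 1 or without CO 24 h donor 7, and 0 of 8 with batch held fixed. By the array names, no CO 24 h array shared a batch with a 4 h or naive array, and only 1 untreated 24 h array did. Batch and time can therefore hardly be told apart. In untreated kidneys 0 of 8 separated in this way, against 6.14%, because donor 1 lay at the bottom of the 4 h group, and 1 of 8, DNAJA4, was called lower, against 4.57%, and 0 of 8 when any other array of these groups was left out. Without donor 1, 7 of 8 separated, against 10.3%, and the same number were called, against 5.72%, with ZFAND2A the exception in both. The 4 h values were known when the genes were chosen, so nothing is read from these counts.

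The share of the log2 rise over naive that was left at 24 h orders the genes. In CO kidneys it was 5.78% for DNAJA4, 13.3% for HSP70.2, 14.3% for DNAJB1, 29.5% for CRYAB, 34.2% for HSPA6, 39.95% for HSPH1, 49.1% for HSP90AA1 and 61.6% for ZFAND2A. In untreated kidneys, with donor 1 left out of the 4 h mean, it was 5.22% for DNAJA4, 21.5% for HSP70.2, 24.0% for DNAJB1, 40.2% for HSPA6, 40.7% for HSPH1, 47.2% for HSP90AA1, 49.3% for CRYAB and 74.9% for ZFAND2A. With donor 1 it was higher, at 7.34%, 29.4%, 31.6%, 55.6%, 54.6%, 61.0%, 67.7% and 99.4% for the same genes. CRYAB stood after HSP90AA1 in untreated kidneys, with or without donor 1, and before HSPA6 in CO kidneys. The J-domain genes and HSP70.2 were thus nearest to naive at 24 h, and ZFAND2A was farthest. The place of HSP90AA1 holds for its brightest probe set only. In CO kidneys its probe set 3 rose over naive by 3.61 at 4 h and 0.78 at 24 h, and probe set 5 by 1.80 and 1.61. Kidneys at 4 h and 24 h came from different donors, so this is no course within an animal. Their arrays, but for 1 at 24 h, were also in different batches by the array names, so time and batch can hardly be told apart. The order of neighbours was not tested.

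At 24 h, 6 of 8 genes had every array above both naive arrays in each group, against 19.8% of all probe sets in untreated and 18.7% in CO kidneys, and the exceptions were DNAJA4 and HSP70.2. DNAJB1 counted only just in CO kidneys, with 7.053 in CO 24 h donor 7 and 7.052 in naive 1. The number called higher was 1 of 8, ZFAND2A, in untreated kidneys, against 6.79%, and 0 of 8 in CO kidneys, against 5.75%. ZFAND2A was no longer called without either naive array, without untreated 24 h donor 5 or 6, or with batch held fixed. Of the 24 h arrays only that of untreated donor 5 shared a batch with a naive array, by the array names. When untreated 4 h donor 1, which shares its spread with every group in the fit, was left out, 5 of 8 were called in each 24 h group, against 8.4% and 7.49%. Those 5 were HSPA6, HSPH1, CRYAB, ZFAND2A and HSP90AA1 in both groups, and 5 of 8 were also called in CO kidneys, and 5 in untreated kidneys, with the compared groups alone in the fit. In CO kidneys ZFAND2A alone was called without CO 24 h donor 8. The naive values were known when the genes were chosen, so nothing is read from these counts either.

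Whether CO changed these genes was asked by comparing CO with untreated kidneys at each time. At 4 h every gene had a higher mean in CO kidneys, by 0.55 for HSP90AA1 up to 1.89 for HSPA6, with a median of 1.23 over the 8 genes and 0.02 over all probe sets. Without untreated donor 1 the median was -0.01, 4 of the differences were below 0, and they ranged from -0.25 for DNAJB1 to 0.27 for CRYAB. The CO array of donor 1, the highest CO 4 h array for 4 of 8 genes, stayed in. These differences thus set 4 CO against 3 untreated arrays and break the pair of that donor. Donors 2 to 4 are given pair by pair below. None of the 8 separated the groups, against 0.908% of all probe sets higher and 0.908% lower without overlap (1.76% and 1.88% without untreated donor 1), and limma called 0 of 23999 probe sets (0%), with 787 at an unadjusted p under 0.05. Leaving out untreated donor 1 alone gave 0 calls as well, with 568 at an unadjusted p under 0.05.

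At 24 h CO and untreated kidneys were not told apart for any of the 8 genes. The choice of genes rested on the 4 h and naive arrays, but earlier results of the same arrays were known. The p-values of this contrast are therefore not from a fully independent test. CRYAB was lower with CO by 0.61 ± 0.63 (SE, n = 4 each, 95% interval -1.95 to 0.73, adjusted p in limma 0.9999), and lower in 3 of 4 donors. ZFAND2A differed by -0.58 (interval -2.61 to 1.44), HSPA6 by -0.51 (interval -3.43 to 2.42), DNAJB1 by -0.47 (interval -2.10 to 1.17) and HSP70.2 by -0.33 (interval -1.82 to 1.16). HSPH1 differed by -0.07 (interval -1.91 to 1.76), DNAJA4 by 0.03 (interval -2.04 to 2.10) and HSP90AA1 by 0.07 (interval -0.60 to 0.74). The adjusted p of limma was 0.9999 for each of the 8. With all arrays in the fit, the intervals of 6 of the 8 genes, all but CRYAB and HSP90AA1, reached past 1 log2 unit in both directions. Untreated 4 h donor 1 is not in this contrast but enters its pooled spread, and without it the intervals narrowed while the differences stayed. That of CRYAB was then -1.22 to -0.01 and did not span 0, with an SE of 0.28 and an adjusted p in limma of 0.9999. Those of HSPA6 (-1.85 to 0.84), ZFAND2A (-1.71 to 0.55), DNAJB1 (-1.42 to 0.49) and HSP70.2 (-1.13 to 0.47) reached past 1 unit lower only. Those of DNAJA4 (-0.96 to 1.03), HSPH1 (-0.77 to 0.62) and HSP90AA1 (-0.18 to 0.33) were narrower still on the lower side. None of the 8 separated the groups, against 0.7% of probe sets higher and 0.483% lower without overlap, and limma called 0 of 23999 (0%), with 281 at an unadjusted p under 0.05. The p-values measure the spread between these kidneys only, and each donor number supplied 1 kidney to each group.

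Within donors the 8 genes tended to move together, and not in the same direction in each donor. In donor 1 all 8 were higher in the CO kidney, with a median of 5.21. In donor 2, 7 of 8 were lower in the CO kidney, with a median of -1.30 and CRYAB as the exception at 0.64. Donors 3 and 4 had medians of 0.15 and 0.19, and 5 and 7 genes higher.

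At 24 h the donors again went different ways. All 8 genes were lower in the CO kidney of donor 6, with a median of -1.05, and 6 of 8 were lower in that of donor 8, with a median of -0.51. Donor 5 had 6 genes higher with a median of 0.23, and donor 7 had 4 higher and 4 lower with a median of 0.16. By the array names, the CO and untreated arrays of donors 5 and 6 were in different batches, and the CO array of donor 6 was alone in its batch. CO and batch cannot be told apart in these donors. The arrays of donors 7 and 8 were in the same batch. When 1 array was left out in turn, the median group difference lay between -0.01 and 1.69 at 4 h and between -0.63 and -0.08 at 24 h. Genes measured on 1 array share its RNA and are not replicates of a donor.

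**Figure D4:**
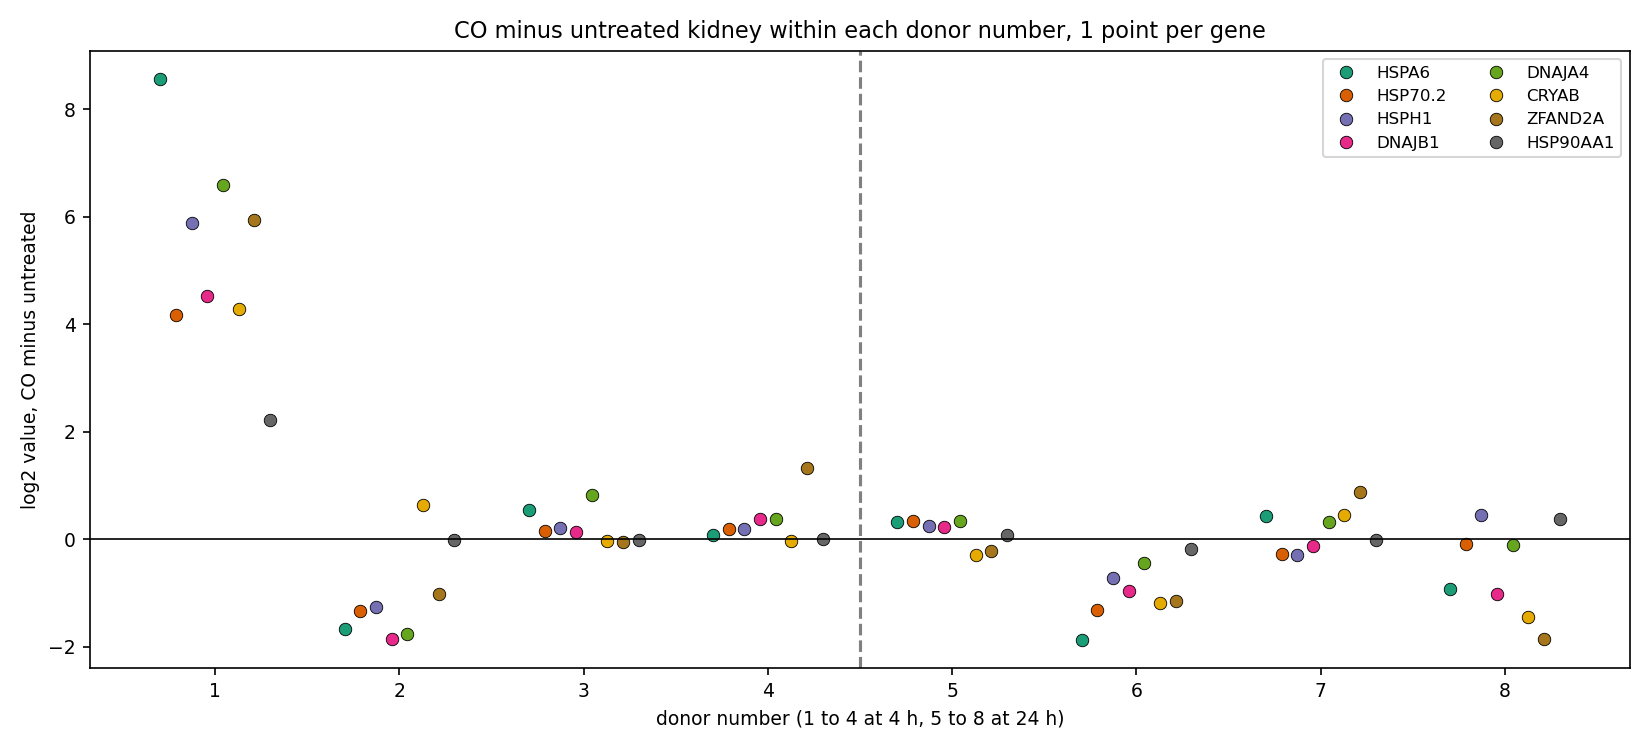
Log2 value of the CO-treated minus the untreated kidney (vertical axis) within each donor number (horizontal axis; 4 h left and 24 h right of the dashed line), 1 point per gene. Donor 1 has all 8 points above 0 around a median of 5.21, and donors 2 and 6 lie mostly below 0. The CO and untreated arrays of donor 6 were in different batches by the array names.

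The genes tended to vary together within the time points as well. Among the 8 arrays at 24 h, the 28 pairs of genes had a median Pearson correlation of 0.45, 25 were positive, and they ran from -0.53 (CRYAB and HSP90AA1) to 0.89 (HSPA6 and HSP70.2). Among the 7 arrays at 4 h other than untreated donor 1, the median was 0.67, and the lowest was -0.03 (CRYAB and ZFAND2A). In the mean of the 8 genes, each centred on its own mean, CO donor 2 lay at 0.96 and the rest of these arrays between 2.00 and 2.58. The 4 h correlations may thus rest largely on that 1 array, and they were not computed without it. These are descriptions over arrays that share normalisation and RNA quality. The lowest untreated 24 h array was that of donor 7 for 6 of 8 genes, and the highest that of donor 6 for 5 of 8. In CO 24 h kidneys donor 7 was the lowest for 5 of 8. Ratios of 3′ to 5′ actin signal, a sign of RNA breakdown, were 1.20 to 2.27 in untreated and 1.22 to 2.79 in CO 24 h kidneys on the log2 scale. The highest untreated ratio, 2.27, was that of donor 7. In CO kidneys donor 7 had 2.18, and the highest, 2.79, was that of donor 8. The part of RNA breakdown in this spread was not tested.

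The genes outside the 8 whose profile over the 18 arrays was most like the mean of the 8 were OSER1, NUDC, HSPB1, CHIC2, PTPN1 and NPC1, with Pearson correlations from 0.98 down to 0.97. Because the arrays fall into raised and other arrays, these values mostly restate that split. Within the 8 arrays at 24 h the correlations were 0.91 for OSER1, 0.74 for NUDC, 0.55 for HSPB1, 0.76 for CHIC2, 0.58 for PTPN1 and 0.23 for NPC1. Within the 7 raised arrays at 4 h they lay between 0.72 for HSPB1 and 0.98 for NUDC, and may rest largely on CO donor 2, the lowest of these arrays in the mean of the 8. NUDC is a cochaperone of HSP90, HSPB1 a small heat shock protein, and PTPN1 a tyrosine phosphatase. OSER1 went from 5.91 in naive to 8.88 in CO 4 h and 6.69 in CO 24 h kidneys, and it read 6.34 on the untreated 4 h array of donor 1.

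Other genes of the pathway were taken from a list of 60, of which 45 were measured. The list was chosen with earlier results of the same arrays known. Its p-values and counts, here and below, are therefore not from an independent test. In CO 4 h kidneys 21 rose in limma and 2 fell, against 6.84% and 6.72% of all probe sets, and the median of the 45 was 0.73. BAG3, which links HSP70 to small heat shock proteins and autophagy, rose by 3.23 ± 0.65 (SE, n = 4 and 2, adjusted p in limma 0.0078). HSPB8, the small heat shock protein that BAG3 binds, rose by 3.15 ± 0.74 (adjusted p in limma 0.014), and HSPB1 by 2.93 ± 0.62 (adjusted p in limma 0.00932). Of 8 measured HSP90 genes and partners 6 rose, among them PTGES3 and STIP1. TRAP1, the mitochondrial HSP90, fell by 0.93 ± 0.24 (adjusted p in limma 0.0194), and DNAJA3, a mitochondrial J-domain protein, fell by 0.59 ± 0.17 (adjusted p in limma 0.0299). Without naive 1 only 1 of the 45 was called and without naive 2 none, and it was 14 without CO donor 1 or without CO donor 3.

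In untreated 4 h kidneys 2 of the 45 rose and 0 fell, against 0.942% and 0.563% of all probe sets, with 25 at an unadjusted p under 0.05 in limma. HSPA13, an HSP70 of the endoplasmic reticulum, rose by 1.13 ± 0.21 (SE, n = 4 and 2, adjusted p in limma 0.0257), and IER5, an early response gene that acts on HSF1, by 1.95 ± 0.45 (adjusted p in limma 0.0468). Without donor 1, 21 rose and 1 fell, against 7.05% and 6.89%. BAG3 read 8.50 in untreated donor 1, beside 8.19 and 7.79 in naive and 11.09, 11.36 and 11.27 in the other untreated 4 h arrays, the same split as in the 8 genes. With donor 1 included, 15 of the 45, BAG3 among them, had every untreated 4 h array above both naive arrays, against 11.5% of all probe sets. Donor 1 was thus not within the naive range for all of the pathway genes. Leaving out naive 1, naive 2 or untreated donor 2, 3 or 4 left 0 called.

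At 24 h CO kidneys had 5 of these 45 genes called against naive, where 11.7% of all probe sets were called, after 23 at 4 h, where 13.6% were. The 5 are close to the share of all probe sets, and nothing is read from them. Untreated kidneys had 9, against 14.6%, after 2 at 4 h, against 1.5%, with donor 1 in the group. Without donor 1 they had 13, after 22 at 4 h. The shares of all probe sets at 24 h were then 8.4% higher and 9.04% lower. In untreated kidneys 6 rose and 3 fell, against 6.79% and 7.77% of all probe sets. IER5 rose by 1.84 ± 0.45 (SE, n = 4 and 2, adjusted p in limma 0.0126), HSPA14, a ribosome-bound HSP70, by 1.17 ± 0.21 (adjusted p in limma 0.00196), and HSPBP1, a nucleotide exchange factor of HSP70, by 1.12 ± 0.28 (adjusted p in limma 0.0142). HSPB6, a small heat shock protein of smooth muscle, changed by -1.28 ± 0.28 (adjusted p in limma 0.00576), HSPA12A by -1.08 ± 0.29 (adjusted p in limma 0.0201) and TRAP1 by -0.89 ± 0.24 (adjusted p in limma 0.0195). Smooth muscle and stroma markers, 3 of 5 measured, were higher at 24 h (8.14 to 9.57) than in naive (7.14 to 7.63), and their part in the HSPB6 value was not tested. In CO kidneys 4 rose and 1 fell, against 5.75% and 5.93%, with IER5 at 1.71 ± 0.45 (adjusted p in limma 0.0229), HSPBP1 at 1.19 ± 0.28 (adjusted p in limma 0.0125), HSPA14 at 1.19 ± 0.21 (adjusted p in limma 0.00274) and HSPB6 at -1.36 ± 0.28 (adjusted p in limma 0.00555). In untreated kidneys the 9 calls became 3 without naive 1, 1 without naive 2, 5 without untreated 24 h donor 6 and 13 without untreated 4 h donor 1 (without untreated 24 h donors 5, 7 and 8 they were 8, 7 and 10). The 5 calls in CO kidneys became 2 without naive 1, 1 without naive 2, 3 without CO 24 h donor 6 and 12 without untreated 4 h donor 1. With the batch in the array names held fixed, 0 of the 45 were called in either 24 h group. Only untreated donor 5 among the 24 h arrays shared a batch with a naive array, so time and batch can hardly be told apart.

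None of the 45 differed between CO and untreated kidneys in limma, at 4 h or at 24 h, and 0 had an unadjusted p under 0.05. The gene of smallest p was HSPA13 at 4 h, higher with CO by 0.36 ± 0.17 (SE, n = 4 each, adjusted p in limma 0.999), and DNAJA3 at 24 h, higher by 0.26 ± 0.14 (adjusted p in limma 0.9999). HSF1 itself was nearly level, with a difference from naive of 0.28 ± 0.19 in CO 4 h kidneys (adjusted p in limma 0.379). This is the RNA of HSF1, whose activity is set on the protein.

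**Figure D5:**
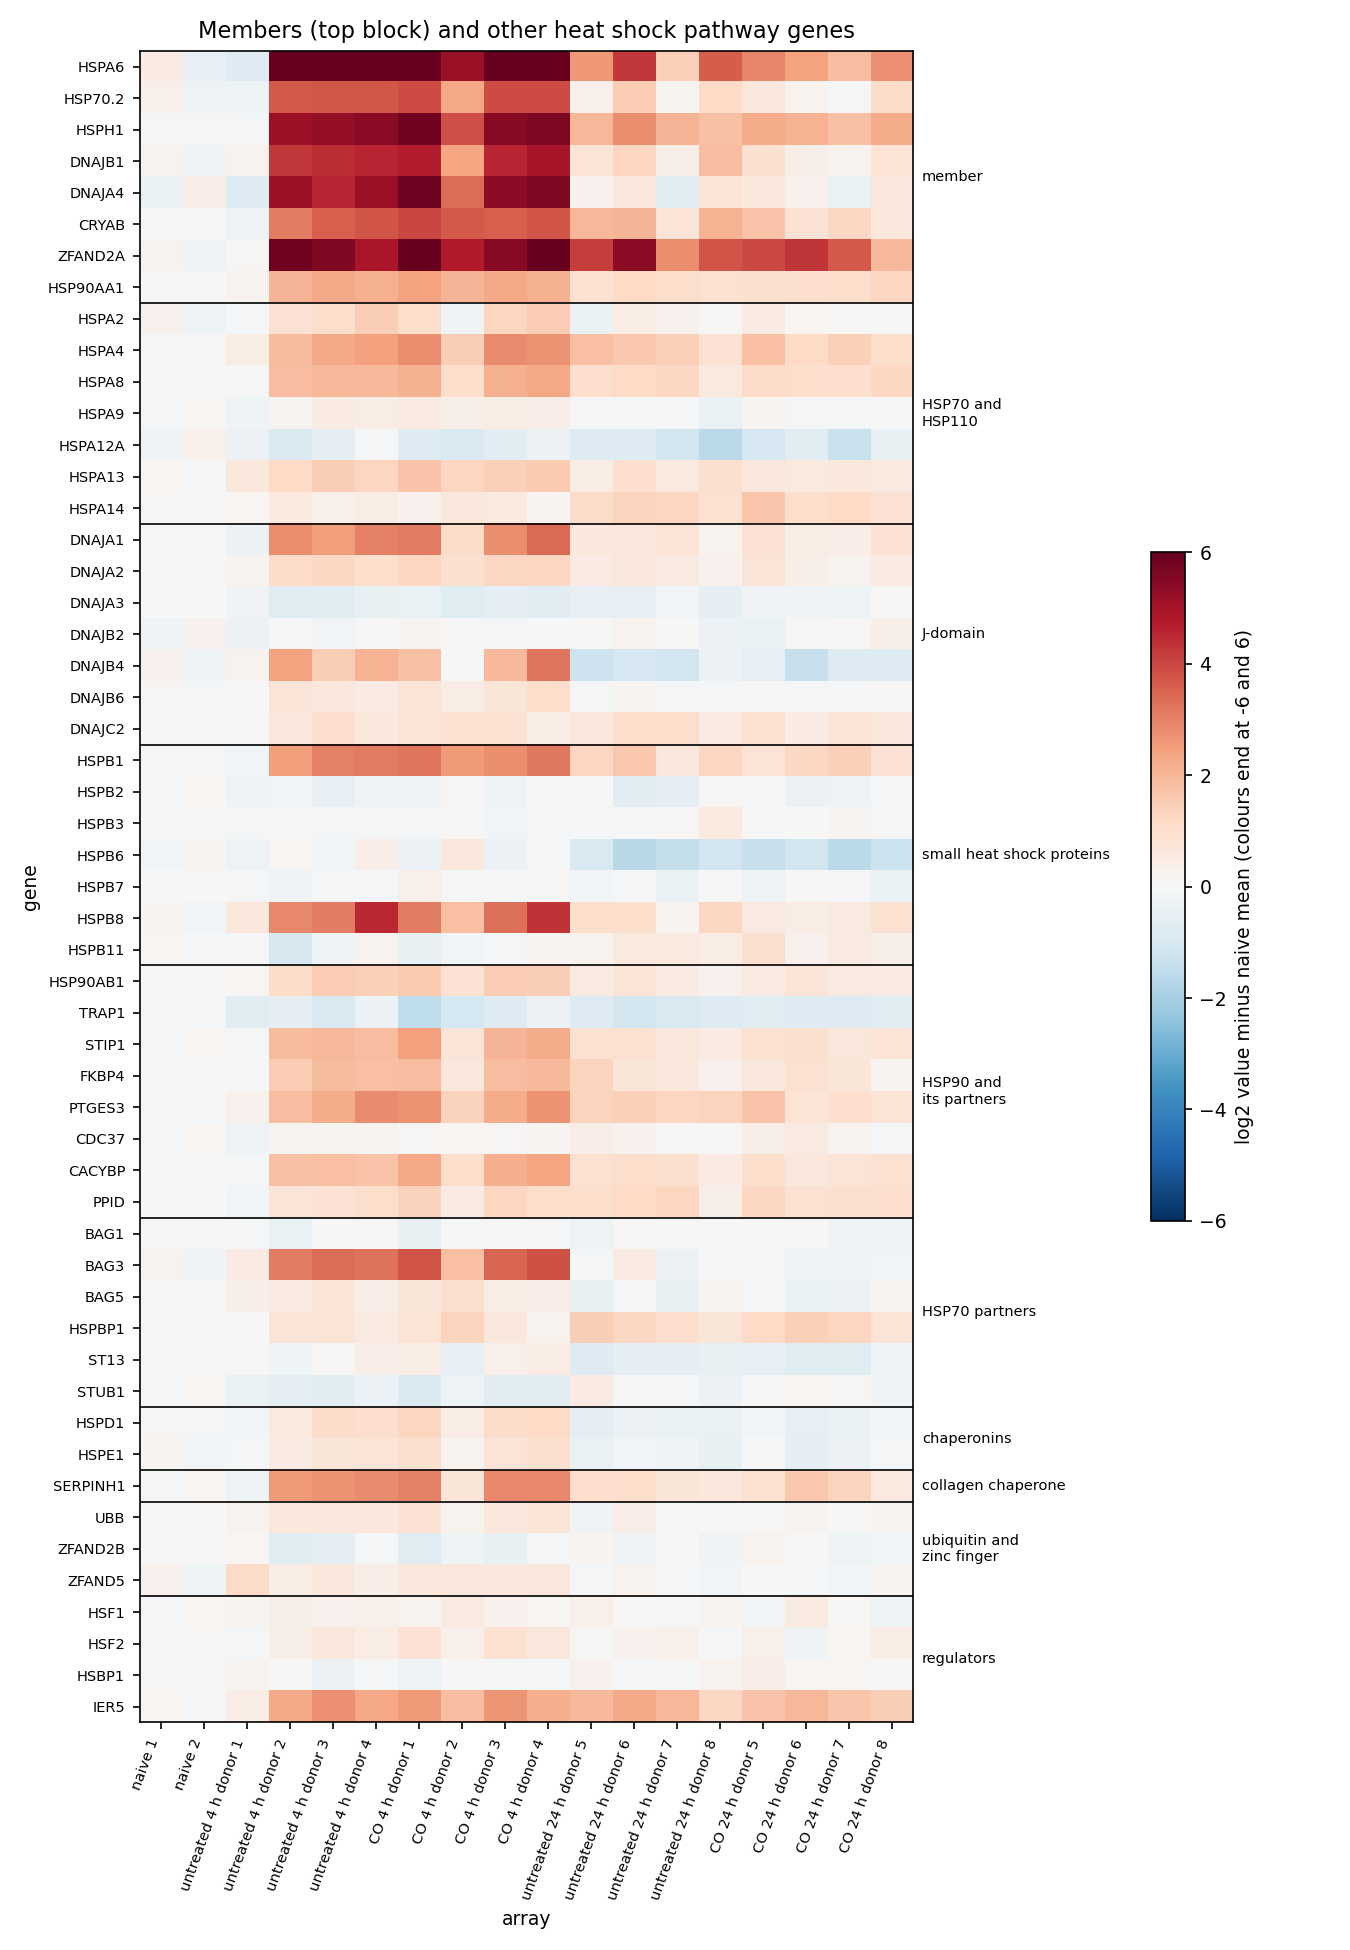
Log2 value minus the naive mean (colour, ending at -6 and 6) of the 8 genes (top block) and the 45 other measured heat shock pathway genes by role (rows), on the 18 arrays (columns). In the top block the column of untreated 4 h donor 1 is nearly as pale as the naive columns. Below it, BAG3, HSPB8 and HSPB1 are raised on the other 4 h arrays. Of the 45 genes, 15 have every untreated 4 h array, donor 1 included, above both naive arrays.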

How the data were processed

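RNA of 18 pig kidneys was measured on Affymetrix arrays. The deposited values are on a log2 scale, and the authors made them with RMA, per the submitters' processing notes; its version and settings are not given in the sources used here. The table holds 24123 probe sets; without the 124 controls, 23999 entered the tests, unfiltered. The platform annotation gave 1 symbol to 10069, several to 198 and none to 13732. Arrays were grouped by title and source, although the treatment entry of the CO arrays reads air. Numbers in both naive array names recur in those of donor 4, so animals may be shared, which the tests ignore.

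Differences were fitted with limma 3.58.1 (R 4.3.3; lmFit, then eBayes, on the 18 arrays together and without a block), two-sided, with Benjamini-Hochberg adjustment over all probe sets and a threshold of 0.05. A gene is given by its brightest probe set, by mean over all arrays. Errors after ± are standard errors from limma. The genes and lists were chosen with earlier results of these data known. Named genes are the 8 with every probe set, per comparison up to 3 pathway genes past the threshold with the largest change each way or the gene of smallest p, and the 6 genes most like the mean profile of the 8. STIP1, PTGES3 and HSF1 were named besides, after their values were seen.

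Donor numbers pair CO and untreated kidneys in the labels; after group means were removed, partner arrays correlated from -0.20 to 0.57, above 0.1 in 6 of 8 donors. Alternatives were the donor as a block (statmod 1.5.0), the batch in the array names, a variance trend, a filter, renewed quantile normalisation, the mean of all probe sets, the compared groups alone and leaving out each array. The comparisons of 24 h with 4 h kidneys were added after the data were seen. Plots used matplotlib 3.10.9 (Python 3.11.15).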

Additional observations from a re-analysis of the deposited data

Results flagged for a closer look

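In groups of 4 arrays, 1 array can be set against the distance between the others. Of 64 such groups, 16 probe sets in 4 groups each, 18 had an array whose gap to its nearest neighbour exceeded, as a share of the group's range, Dixon's 95% critical value for 4 samples, where chance alone gives about 1 in 20 groups. Probe sets of a gene and genes on an array share their RNA, so the 18 are not independent.

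The untreated 4 h array of donor 1 accounted for 9 of them, each time as the lowest array: 2.17 for HSPA6, 8.31, 8.11 and 7.78 for the 3 HSP70.2 probe sets, 6.06 for HSPH1, 7.05 for DNAJB1, 3.09 for DNAJA4, 3.38 for ZFAND2A and 10.18 for the brightest HSP90AA1 probe set. The other 3 arrays of the group lay between 9.78 and 10.86 for HSPA6.

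The CO 4 h array of donor 2 was the lowest for 7: 8.12 for HSPA6, 10.92, 10.94 and 11.27 for HSP70.2, 9.22 for DNAJB1, 9.55 for the third HSP90AA1 probe set and 1.76 for the dimmer CRYAB probe set. The remaining 2 were in untreated 24 h kidneys. Donor 7 was low for CRYAB at 8.40, and donor 8 was high for the fifth HSP90AA1 probe set at 5.64.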

How the results depend on the processing

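The median differences of the 8 genes kept their sign in every comparison under every alternative, except CO against untreated at 4 h, which went from 1.23 to -0.01 without untreated donor 1; leaving out 1 array gave 2.96 to 4.68 for untreated 4 h against naive, 4.37 to 5.17 for CO 4 h, 1.30 to 1.67 for untreated 24 h and 1.01 to 1.15 for CO 24 h. The number of probe sets called moved far more. For untreated 4 h against naive it was 361, with 2 to 3347 when 1 array was left out, 105 with batch as a block and 0 with the compared groups alone. For CO 4 h it was 3254, with 1 to 4146 on leaving out 1 array. For untreated 24 h it was 3494, with 903 to 4197 on leaving out 1 array and 159 with the batch block, and for CO 24 h it was 2804, with 459 to 3486 and 0. Of the 45 pathway genes 2, 23, 9 and 5 were called in these comparisons. Leaving out 1 array gave 0 to 22, 0 to 26, 1 to 13 and 1 to 12, the batch block 1, 18, 0 and 0, and the compared groups alone gave 0, 17 and 16 in untreated 4 h, untreated 24 h and CO 24 h kidneys. With the donor as a random block, the replicate block, 276, 3242, 3526 and 2860 probe sets were called and the pairing changed no call on the 8 genes but that of HSP90AA1 in untreated 4 h kidneys. CO against untreated gave 0 calls at both times under every alternative run. With the mean of all probe sets the differences of DNAJA4 and HSP90AA1 moved, since their probe sets disagree. The causes were not tested. By the array names, no CO 24 h array shared a batch with a naive or 4 h array, so batch and time cannot be told apart there. Precision is limited by 2 naive and 4 transplanted arrays a group, and values near 1.61 are not above background.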
